A study of Rattus norvegicus with 8 samples.

Results

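The genes described here mark the steps by which a neural stem cell becomes a young neuron. They were fixed as a list of 36 names: 12 of stem cells, 7 of progenitors and 17 of immature neurons. A gene was included when a probe carried a name on the list, after symbols of the scanner files were brought up to date with RefSeq (assembly GRCr8). That found 31 of the 36 genes, 10 of 12 for stem cells, 5 of 7 for progenitors and 16 of 17 for immature neurons, among 18803 features tested in all. Sox1, Msi2, Eomes, Mex3a and Draxin had no probe under these names and were not analysed here. All 31 genes passed the filter on dim probes.

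The samples were hippocampi of male Sprague Dawley rats aged 3 months. The treated rats, labelled Y+I, received yohimbine and imipramine in combination for 7 days, and the control rats received vehicle for the same time, and the labels give a time of 2 h for the tissue. Imipramine belongs to the tricyclic antidepressants and slows monoamine reuptake, and yohimbine is an alpha2-adrenoceptor antagonist. There were 4 animals per group, each on an array of its own with 1 dye, so every mean below has n = 4. The series has a single contrast, Y+I against vehicle, which asks how the genes differed after the combination and cannot separate the drugs.

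In the adult hippocampus, radial glia-like stem cells lie in the subgranular zone of the dentate gyrus and divide into intermediate progenitors, which become neuroblasts, immature neurons and then granule cells. Stem cells carry the transcription factor Sox2 and the filament protein nestin, progenitors carry proneural basic helix-loop-helix factors, and immature neurons carry the microtubule protein doublecortin. These cells are rare in adult tissue, and several of the genes are also transcribed in abundant cells: Sox2, Sox9, Fabp7, Vim and Id4 in astrocytes, and Neurod2, Neurod6, Stmn2, Tubb3, Ncam1, Gap43 and Cdk5r1 in mature neurons. In a bulk sample, fewer cells of a type and less RNA per cell cannot be told apart.

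Values are normalised log2 signals, that is, log2 of the processed spot intensity minus the 75th percentile of the array, and a log2 fold change is the Y+I mean minus the vehicle mean. A change was called at a Benjamini-Hochberg adjusted p under 0.05 over all 18803 features in limma. The share of spots well above background was 64.4% to 74.8% on Y+I arrays and 76.4% to 79.7% on vehicle arrays. Before scaling, the 75th percentile of the processed signal was 1883, 1408, 1971 and 1045 on Y+I arrays 1 to 4. It was 1939 to 2106 on vehicle arrays. The part of array signal in differences between Y+I animals was not tested. All arrays were on 1 slide, Y+I on row 2 and vehicle on row 1, so the row cannot be told apart from the treatment. The animal number is also the slide column, and each column held 1 Y+I and 1 vehicle array.

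The sequences below are those of the probes behind the 9 genes with the smallest p, the values on which the account turns. For each, the first 30 of the 60 bases are given 5′ to 3′ in lower case, with the position of the whole probe on rat build rn4 as in the scanner files. The files do not say which part of the transcript a probe covers.
Nr2e1 (stem cell, no position given): atcggcaacgtgccgataacgagactgctt
Sox2 (stem cell, chr2:120970327-120970386): ccctgtcgcacatgtgagggccggaccgcg
Neurod6 (progenitor, chr4:84476853-84476912): catctgcgcagccaatctctcactatgcaa
Neurod1 (progenitor, chr3:62225107-62225166): atatgtatttattgtcgttactgcctttgg
Gap43 (immature neuron, chr11:60083320-60083379): cctaaggaaagtgcccgacaggatgagggt
Dpysl5 (immature neuron, chr6:25559026-25559085): tagccccaggtaatgaccctggagggtgat
Stmn1 (immature neuron, chr5:153231088-153231147): ttgctgagaagcgggagcatgaaaaagaag
Marcksl1 (immature neuron, chr5:148672276-148672335): aaaccattcttccacctggatttactgtaa
Bhlhe22 (immature neuron, chr2:103089321-103089380): caatcagactatgacagcaatgtacgacca
The probes of related genes had little sequence in common. Among 30 pairs of probes of different genes within the basic helix-loop-helix, SOX, CRMP, stathmin and doublecortin families, the longest run of identical bases was 9, and the best ungapped overlay matched 27 of 60 bases.

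None of the 31 genes changed past the threshold in limma (0 of 31, where 2.33% of all features did). At an unadjusted p under 0.05 there were 9 of 31 genes (29.0%), against 15.6% of all features. The 9 were Neurod6, Neurod1 and Bhlhe22 with higher values in Y+I (3 genes, where 6.46% of all features were so), and Gap43, Dpysl5, Stmn1, Nr2e1, Sox2 and Marcksl1 with lower values (6 genes, where 9.16% of all features were so). With normexp background correction the split was the other way, 7 higher and 4 lower, where 22.1% of all features had such a p. All called features turned too, to 400 higher and 202 lower. In the main fit 20 of the 31 genes and 10175 of all 18803 features were below 0, and with normexp 15 of the 31 were. The values of the 4 Y+I and 4 vehicle animals did not overlap in 5 of 31 genes (16.1%), against 11.7% of all features: Neurod6, Neurod1, Dpysl5, Nr2e1 and Marcksl1. Nr2e1, Msi1, Neurog2, Insm1 and Sox11 passed the filter only through vehicle, so nothing is read from the place of Nr2e1 in these counts, and its direction turned with normexp. Of the 26 genes well above background on all 8 arrays, 3 had higher and 5 lower values at an unadjusted p under 0.05. Among all features that met the same condition, 16.03% had such a p in either direction. In 11 of 31 genes (35.5%) the Y+I array differed from the vehicle array of the same slide column in the same direction in all 4 columns, against 22.8% of all features. The 11 include Nr2e1 and Neurog2, and nothing is read from their place in this count for the same reason, the filter. The median log2 fold change was -0.08 over the 31 genes and -0.02 over all features.

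By stage, the median log2 fold change was -0.03 over the 10 stem cell genes, with 5 above 0 and 5 below. It was 0.48 over the 5 progenitor genes, with 4 above 0. Those 4 were Neurod6 (0.59), Neurod2 (0.58), Neurod1 (0.48) and Insm1 (0.14), and Neurog2 had -0.37. Neurod2 and Neurod6 are also transcribed in mature neurons, so the median is not one of progenitors alone. The median was -0.17 over the 16 immature neuron genes, with 14 below 0. Of all 18803 features, 10175 were below 0. Nr2e1, Msi1, Neurog2, Insm1 and Sox11 passed the filter only through vehicle, so nothing is read from their place in these counts and medians. Among genes well above background on all 8 arrays, the median was 0.01 over 8 stem cell genes. It was 0.58 over 3 progenitor genes and -0.13 over 15 immature neuron genes. With normexp the immature neuron genes Sox11, Dpysl3, Igfbpl1 and Cdk5r1 turned above 0, and Tubb3 turned below. No stage held a gene past the threshold, and the difference between stages was not tested. The SD between animals was larger in Y+I than in vehicle for 27 of 31 genes (87.1%), as it was for 77.8% of all features.

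**Figure D1:**
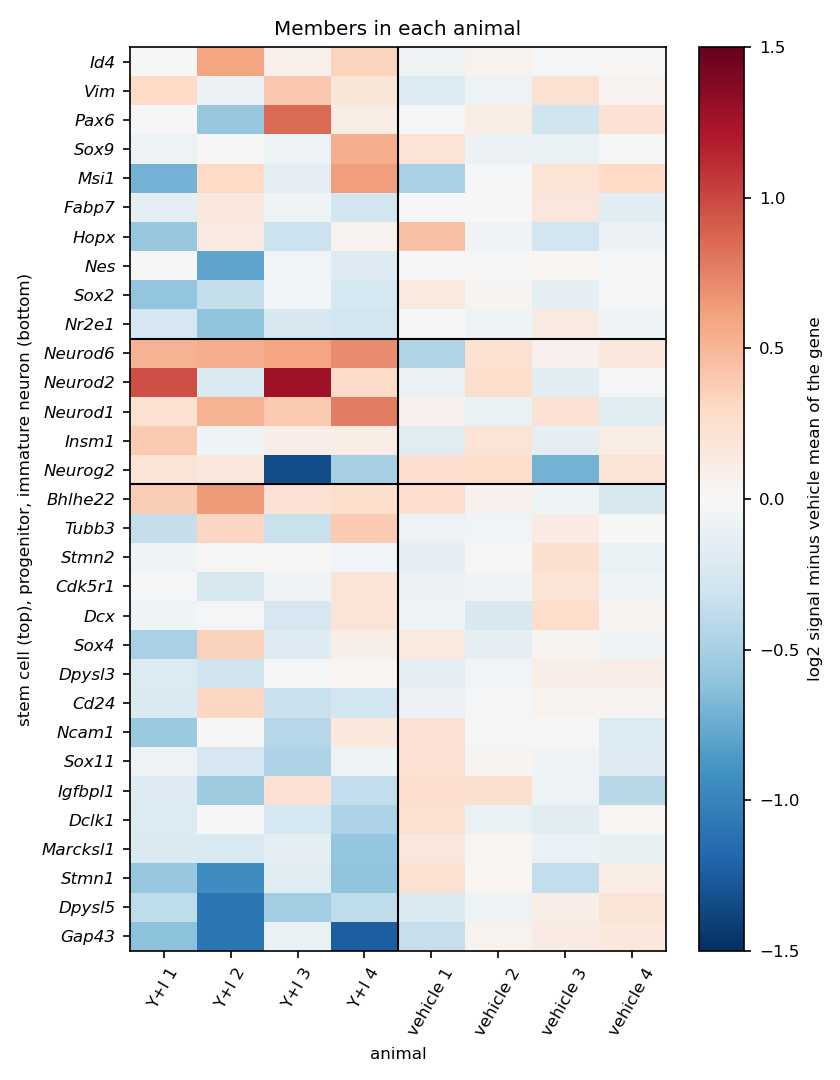
Each row is 1 of the 31 genes and each column 1 animal, with Y+I animals 1 to 4 on the left and vehicle animals 1 to 4 on the right. Colour gives the log2 signal minus the mean of that gene in vehicle. The rows of Neurod6 and Neurod1 are red in all 4 Y+I animals and those of Gap43, Dpysl5 and Stmn1 blue, while most other rows mix both colours.

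Among the progenitor genes, Neurod6, a basic helix-loop-helix factor of developing and adult forebrain glutamatergic neurons, had the smallest p of all 31 genes. Its log2 signal was 1.83, 1.85, 1.90 and 2.02 in Y+I animals 1 to 4, against 0.86, 1.54, 1.38 and 1.47 in vehicle animals 1 to 4. Every Y+I animal was above every vehicle animal, and vehicle animal 1 was the lowest. The log2 fold change was 0.59 ± 0.15 (SE; 1.51-fold, 95% interval 0.25 to 0.94) at an unadjusted p of 0.00379 and an adjusted p of 0.0964 in limma. Neurod6 passed the threshold under 2 of the 20 alternatives, with the trended and robust variance model (adjusted p = 0.0482) and with no filter on background (adjusted p = 0.0454), where the log2 fold change was the same.

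Neurod1, which drives granule cell differentiation in the dentate gyrus, had a log2 signal of -1.21, -0.92, -1.05 and -0.67 in Y+I animals 1 to 4 and of -1.38, -1.55, -1.22 and -1.62 in vehicle animals 1 to 4. The groups did not overlap, but the lowest Y+I and the highest vehicle animal lay close together. This gave a log2 fold change of 0.48 ± 0.14 (SE, 1.39-fold), with an adjusted p of 0.137 in limma.

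Neurod2, a paralogue used by maturing and adult excitatory neurons, had a log2 signal of 3.16, 1.98, 3.46 and 2.48 in Y+I animals 1 to 4, against 2.10, 2.46, 2.03 and 2.18 in vehicle. Y+I animals 1 and 3 were high and Y+I animal 2 was below every vehicle animal, so the groups overlapped. Its log2 fold change of 0.58 ± 0.30 (SE) was as large as that of Neurod6, with an adjusted p of 0.394 in limma. Insm1, a zinc finger factor of dividing neurogenic progenitors, had a log2 fold change of 0.14 ± 0.13 (SE, adjusted p = 0.687). Neurog2, which starts neuronal commitment upstream of NeuroD factors, was well above background on 2 of 4 Y+I arrays and had a log2 fold change of -0.37 ± 0.36 (SE, adjusted p = 0.68), with Y+I animal 3 and vehicle animal 3 the lowest of their groups at -7.33 and -6.71.

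Promoters of the NeuroD genes are shown because these genes had the largest positive log2 fold changes, and because NeuroD factors bind E-boxes, a family of short sites to which CAGATG belongs. The sequences are from RefSeq, build GRCr8, and cover the 250 bases before the transcription start, 5′ to 3′ on the minus strand, with CAGATG (searched on both strands) in capitals.
Neurod6 (chr4:86180156-86180405): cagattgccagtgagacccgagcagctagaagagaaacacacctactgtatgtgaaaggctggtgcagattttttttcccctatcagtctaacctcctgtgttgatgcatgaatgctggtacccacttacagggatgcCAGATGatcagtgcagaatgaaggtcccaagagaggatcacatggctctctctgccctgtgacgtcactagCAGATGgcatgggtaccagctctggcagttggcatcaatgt
Neurod2 (chr10:83824278-83824527): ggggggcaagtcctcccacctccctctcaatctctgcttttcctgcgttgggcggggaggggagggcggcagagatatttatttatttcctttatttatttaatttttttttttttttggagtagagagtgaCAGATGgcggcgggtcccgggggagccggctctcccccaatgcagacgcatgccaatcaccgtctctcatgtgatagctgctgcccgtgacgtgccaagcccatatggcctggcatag
CAGATG occurred 2 times in the Neurod6 window and 1 time in that of Neurod2, and the same letters were not in the window of Neurod1. Of the 23 genes with a promoter in the table, Dclk1, Neurod2 and Neurod6 held CAGATG (3 of 23), as did 4673 of all 33469 promoters (13.96%). The related E-box CAGCTG occurred in 3 of 23, Dpysl3, Marcksl1 and Sox11, and in 4007 of the 33469 (11.97%). A match is a description of the letters and says nothing of binding.

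**Figure D2:**
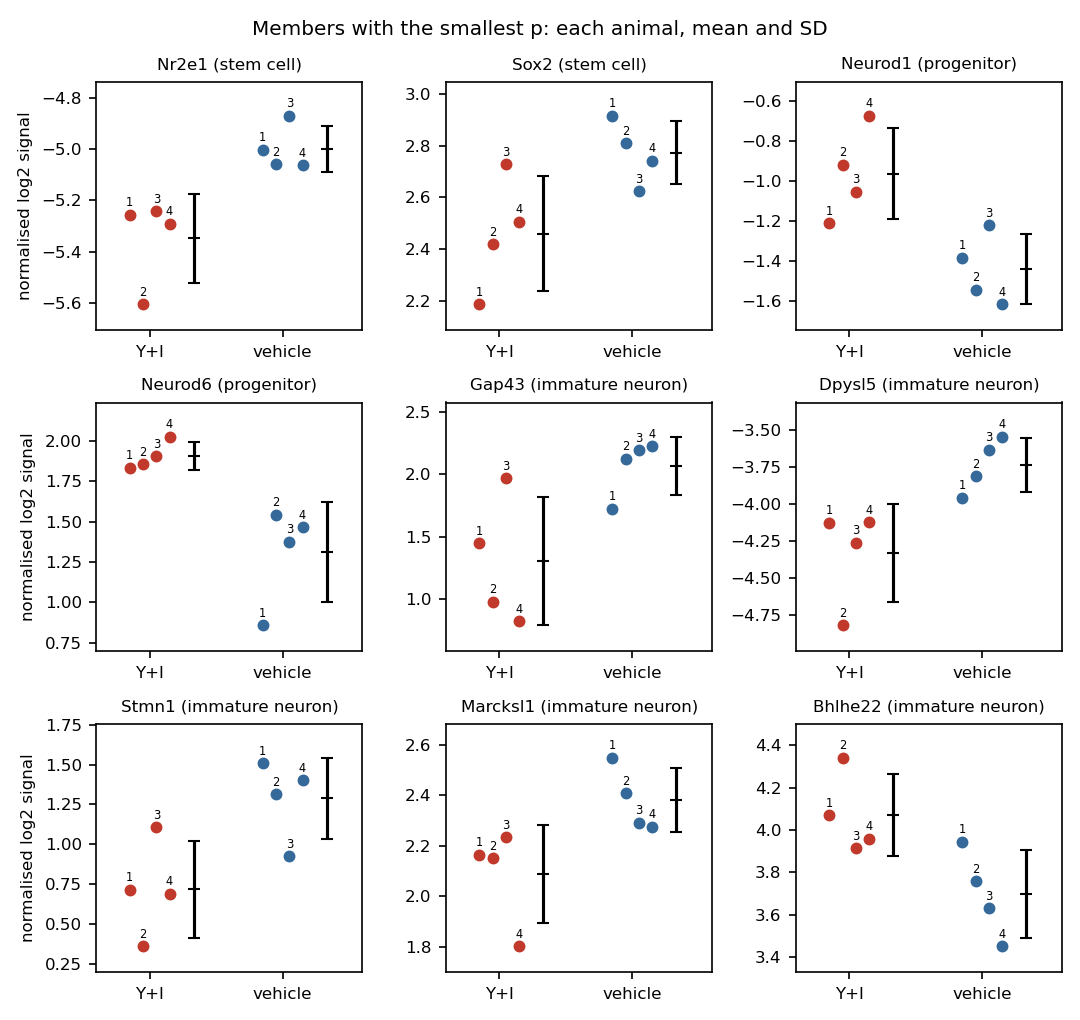
The 9 genes with an unadjusted p under 0.05, with normalised log2 signal on the vertical axis of each panel. Points are the 4 Y+I animals (left, red) and the 4 vehicle animals (right, blue), numbered, and black marks give the mean and SD. Neurod6, Neurod1, Dpysl5, Nr2e1 and Marcksl1 show no overlap between the groups, and in Gap43, Stmn1, Sox2 and Bhlhe22 at least 1 animal crosses into the range of the other group.

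Most of the immature neuron genes encode proteins of the growing cytoskeleton, and the 3 log2 fold changes farthest below 0 were those of Gap43, Dpysl5 and Stmn1. Gap43, a growth cone protein that is also kept in adult hippocampal neurons, had the largest log2 fold change of the 31 genes. Its log2 signal was 1.45, 0.98, 1.97 and 0.83 in Y+I animals 1 to 4, against 1.72, 2.12, 2.19 and 2.23 in vehicle. Y+I animals 2 and 4 were far below all vehicle animals, while Y+I animal 3 lay within the vehicle range. The arrays of Y+I animals 2 and 4 also had the lowest 75th percentiles of signal before scaling, and the part of this in the Gap43 values was not tested. The log2 fold change was -0.76 ± 0.24 (SE; 1.69-fold lower, 95% interval -1.31 to -0.21), with an adjusted p of 0.165 in limma. Without Y+I animal 3 it was -0.98 and passed the threshold (adjusted p = 0.0454).

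Dpysl5, the CRMP5 protein of axon guidance in young neurons, had a dim log2 signal of -4.12, -4.82, -4.26 and -4.12 in Y+I animals 1 to 4 and of -3.96, -3.81, -3.64 and -3.55 in vehicle. All Y+I animals were lower than all vehicle animals, and Y+I animal 2 was the lowest. Their means differed by a log2 fold change of -0.59 ± 0.17 (SE, 1.51-fold lower, adjusted p = 0.134). With normexp background correction it was -0.15 (adjusted p = 0.456). Dpysl3, the related CRMP4, had -0.12 ± 0.11 (SE, adjusted p = 0.655).

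Stmn1, the microtubule-destabilising stathmin of dividing cells and neuroblasts, had a log2 signal of 0.71, 0.36, 1.11 and 0.69 in Y+I animals 1 to 4, against 1.51, 1.31, 0.92 and 1.40 in vehicle. Vehicle animal 3 was lower than Y+I animal 3, and otherwise the Y+I values were the lower ones. Stmn1 had a log2 fold change of -0.57 ± 0.18 (SE, 1.48-fold lower, adjusted p = 0.159). Its neuronal relative Stmn2 had -0.02 ± 0.11 (SE, 95% interval -0.26 to 0.22).

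Marcksl1, an actin-binding substrate of protein kinase C, had a log2 signal of 2.17, 2.15, 2.24 and 1.80 in Y+I animals 1 to 4 and of 2.55, 2.41, 2.29 and 2.28 in vehicle. The groups did not overlap, by a margin smaller than the spread within either group, and the log2 fold change was -0.29 ± 0.12 (SE, adjusted p = 0.288). Bhlhe22, a helix-loop-helix repressor of postmitotic neurons, went the other way, with 4.07, 4.34, 3.91 and 3.96 in Y+I animals 1 to 4 against 3.94, 3.76, 3.63 and 3.45 in vehicle. Y+I animal 3 was just below vehicle animal 1, and the log2 fold change was 0.37 ± 0.14 (SE, adjusted p = 0.231).

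Among the classic markers of immature neurons, Dcx and Tubb3 had log2 fold changes near 0. Dcx, which encodes doublecortin, had a log2 signal of -0.05, -0.02, -0.24 and 0.21 in Y+I animals 1 to 4 and of -0.06, -0.22, 0.28 and 0.06 in vehicle. The groups overlapped throughout, and the log2 fold change was -0.04 ± 0.14 (SE), with a 95% interval of -0.35 to 0.27. That interval leaves out larger changes for this probe only. The second Dcx probe, which was dim, gave -0.33 ± 0.18 (SE) in a fit of all kept probes. Dclk1, a kinase with a doublecortin domain, had -0.23 ± 0.13 (SE, adjusted p = 0.434). Tubb3, the neuronal tubulin, had 0.00 ± 0.19 (SE, 95% interval -0.42 to 0.42), with Y+I animals 2 and 4 above and Y+I animals 1 and 3 below the vehicle range.

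Sox4 and Sox11, SOXC factors that switch on neuronal genes in neuroblasts, had log2 fold changes of -0.06 ± 0.17 (SE) and -0.22 ± 0.13 (SE), and Sox11 was well above background on 3 of 4 Y+I arrays. Igfbpl1, a marker of neuroblasts, had -0.22 ± 0.20 (SE). Among the surface proteins, Cd24 had -0.13 ± 0.15 (SE) and the adhesion molecule gene Ncam1 had -0.20 ± 0.18 (SE). Cdk5r1, the p35 activator of the kinase Cdk5, had -0.03 ± 0.12 (SE). The adjusted p of these 6 genes lay between 0.467 for Sox11 and 0.943 for Cdk5r1 in limma.

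Log2 fold changes of the stem cell genes ran from -0.35 to 0.25, the narrowest range of the 3 stages. Nr2e1, the orphan receptor TLX that maintains adult neural stem cells, had a dim log2 signal of -5.26, -5.61, -5.24 and -5.29 in Y+I animals 1 to 4, against -5.00, -5.06, -4.87 and -5.06 in vehicle. The groups did not overlap, and its probe was well above background on 2 of 4 Y+I arrays and all 4 vehicle arrays. Nr2e1 had a log2 fold change of -0.35 ± 0.11 (SE, 1.27-fold lower, adjusted p = 0.159), and with normexp it was 0.16 (adjusted p = 0.363), so its direction depends on the background correction.

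Sox2, the pluripotency and neural stem cell factor, had a log2 signal of 2.19, 2.42, 2.73 and 2.51 in Y+I animals 1 to 4 and of 2.92, 2.81, 2.62 and 2.74 in vehicle. Y+I animal 3 lay within the vehicle range and the other 3 below it. Sox2 had a log2 fold change of -0.31 ± 0.13 (SE, 1.24-fold lower, adjusted p = 0.285). Id4, an inhibitor of proneural factors that keeps stem cells quiescent, had -0.62, -0.04, -0.55 and -0.29 in Y+I animals 1 to 4 against -0.68, -0.57, -0.64 and -0.61 in vehicle. Its vehicle animals lay close together, Y+I animals 2 and 4 stood above them, and the log2 fold change was 0.25 ± 0.13 (SE, adjusted p = 0.416).

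The filament genes Nes and Vim had log2 fold changes of -0.25 ± 0.17 (SE) and 0.20 ± 0.14 (SE). In Nes, Y+I animal 2 stood low, at -2.56, against -1.96 to -1.76 in the other Y+I animals and -1.81 to -1.74 in vehicle. Fabp7, the brain lipid-binding protein of radial glia, had -0.08 ± 0.12 (SE, 95% interval -0.35 to 0.19), and Hopx, a homeodomain protein of quiescent stem cells, -0.17 ± 0.20 (SE). Sox9, which sets up the stem cell state and glial fate, had 0.10 ± 0.16 (SE), the eye and forebrain factor Pax6 0.10 ± 0.27 (SE) and the RNA-binding protein gene Msi1 0.02 ± 0.29 (SE). The adjusted p of these 7 genes was at least 0.531 in limma, and Msi1 was well above background on 2 of 4 Y+I arrays.

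**Figure D3:**
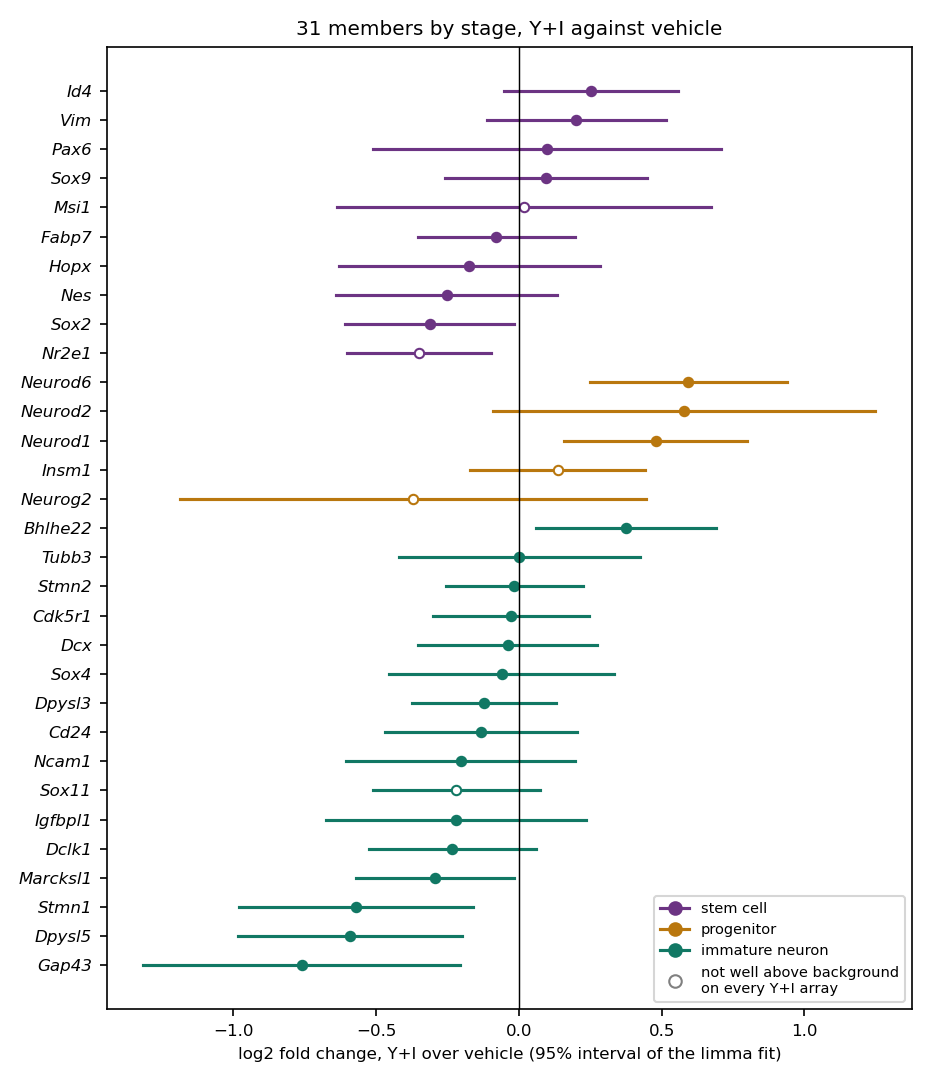
Log2 fold change of Y+I over vehicle for the 31 genes by stage (points) with the 95% interval of the limma fit (lines, not adjusted for the number of genes). Open points mark the 5 genes with a Y+I array on which the probe was not well above background. Neurod6 at 0.59 and Gap43 at -0.76 are the extremes, and the intervals of 22 genes include 0.

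For 6 of the 31 genes a second probe gave a separate reading. The probes of Sox2 both had lower values in Y+I, with log2 fold changes of -0.31 ± 0.13 and -0.46 ± 0.18 (SE) in a fit of all kept probes. So did those of Nes, with -0.25 ± 0.17 and -0.37 ± 0.13 (SE), the second having an unadjusted p of 0.0203 and an adjusted p of 0.214. For Stmn2 both were near 0, at -0.02 and -0.04. For Dclk1 the brighter probe gave -0.23 and the other had means of -1.77 in Y+I and -1.76 in vehicle. The probes of Dcx gave -0.04 and -0.33 and those of Sox9 0.10 and -0.40, where in each gene the second probe was dim and well above background on 1 of 4 Y+I arrays. No probe of these genes passed the threshold.

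**Figure D4:**
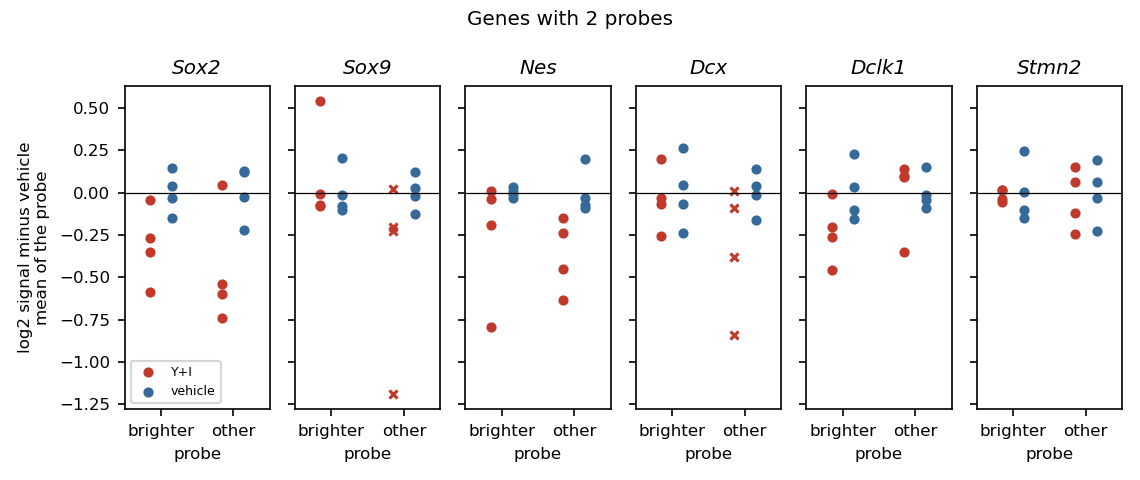
Log2 signal minus the vehicle mean of the same probe, for the brighter and the other probe of 6 genes. Red marks are Y+I animals and blue marks vehicle animals, and crosses mark probes with a Y+I array not well above background. Sox2 and Nes lie below 0 in most Y+I animals with both probes, and the spread in Y+I is widest for the dim probes of Sox9 and Dcx.

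Other genes of the neurogenic lineage, from a list of 20 of which 18 were measured, gave 1 lower gene and no higher one, where 2.33% of all features were called. An unadjusted p under 0.05 in limma was found for 10 of 18 (15.6% of all features), 8 of them lower (9.16% of all features). The 8 include Gli1, which passed the filter only through vehicle, so nothing is read from its place in these counts. The median log2 fold change of all 18 genes was -0.23. Elavl4, the neuronal RNA-binding protein HuD, was the gene that fell: its log2 signal was 1.80, 1.89, 1.79 and 1.91 in Y+I animals 1 to 4, against 2.62, 2.34, 2.56 and 2.48 in vehicle. The groups were separated by several times their SD, and the log2 fold change was -0.65 ± 0.09 (SE, adjusted p = 0.0133). Elavl4 passed in 7 of the 8 fits that left out an animal (adjusted p = 0.059 without vehicle animal 4). Leaving out Y+I animals 2 and 3 at the same time gave an adjusted p of 0.0632, and a block for animal number, which is the slide column, gave 0.0872, so both ended the call.

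The other values with the smallest p in that list did not pass. Calb2, which encodes calretinin of immature granule cells and of thalamic and interneuron populations, had a log2 fold change of -0.83 ± 0.18 (SE, adjusted p = 0.0571), and Hes5, a Notch target of stem cells, had -0.58 ± 0.13 (SE, adjusted p = 0.0635). Of the later and flanking stages, none of 11 measured proliferation genes passed (median -0.17), with Cdk1 at -0.52 ± 0.17 (SE, adjusted p = 0.171), nor did any of 5 dentate granule cell genes (median -0.08) or 6 mature neuron genes (median 0.08). None of 10 astrocyte genes passed either (median -0.03). At an unadjusted p under 0.05 these 4 lists held 1, 0, 0 and 2 genes, where 15.6% of all features had such a p. With normexp the median was 0.14 for the proliferation genes and 0.11 for the dentate granule cell genes, so the sign of both depends on the background correction. Of the 11 proliferation genes, 6 were well above background on all 8 arrays, as were 3 of the 5 dentate granule cell genes.

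Markers of tissue beside the hippocampus were mixed. Of 6 meningeal markers 3 fell, Slc6a13, Col1a1 and Igfbp2, with log2 fold changes of -1.02, -1.03 and -0.73 (adjusted p of 0.0105, 0.0135 and 0.0383 in limma), though a second probe of Col1a1 gave -0.16 and Dcn had 0.19, and the summed signal of the list was 0.89 to 1.28 (log2) in Y+I against 1.56 to 1.95 in vehicle. Of 7 thalamus and striatum markers, which include Calb2, 2 fell, Slc17a6 (-1.17, adjusted p = 0.0291) and Drd2 (-0.60, adjusted p = 0.0278), Tcf7l2 had 0.09, and the summed signal was 1.01 to 1.25 in Y+I against 1.73 to 2.23 in vehicle. None of 5 measured neocortex markers passed (median 0.00), with Fezf2 at -0.61 and Bcl11b at 0.56, and none of 5 ependymal and choroid plexus markers did (median 0.65). With each array left out in turn, Slc6a13 and Col1a1 passed in 8 of 8 fits, Slc17a6 and Drd2 in 2 and Igfbp2 in 1. The block for animal number ended the calls of Slc17a6 (adjusted p = 0.0630), Igfbp2 (0.0631) and Drd2 (0.102). Their part in the values of the lineage genes was not tested. Y+I animals 2 and 3 had the lowest shares of spots well above background, and without them no gene of the 31 passed. Of the 5 called tissue markers, Col1a1 then passed (adjusted p = 0.0435), and Slc6a13 (0.0641), Igfbp2 (0.0877), Drd2 (0.113) and Slc17a6 (0.153) did not. In that fit the log2 fold change was 0.62 for Neurod6, 0.50 for Neurod1, -0.93 for Gap43, -0.59 for Stmn1 and -0.39 for Dpysl5.

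**Figure D5:**
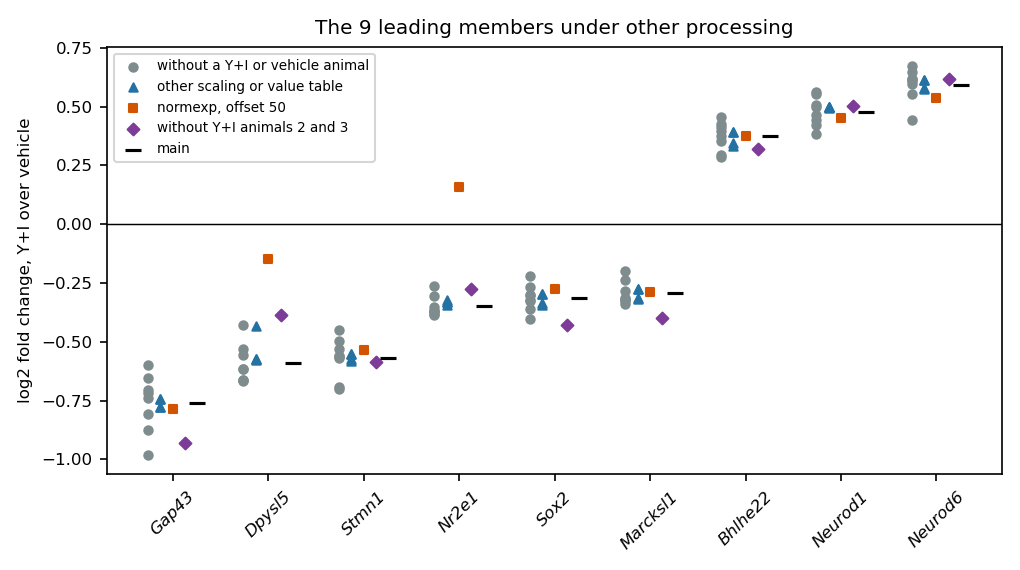
Log2 fold change of Y+I over vehicle for the 9 genes with an unadjusted p under 0.05, as reported (black bars) and under other processing: each animal left out in turn, other scaling or the deposited value table, normexp background correction, and without Y+I animals 2 and 3. Only Nr2e1 crosses 0 in these fits, with normexp (0.16), and Dpysl5 moves to -0.15 there.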

How the data were processed

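Hippocampal RNA of 4 Y+I and 4 vehicle rats was made into Cy3 cRNA for Agilent arrays with 1 dye, per the labels' protocols. Scans went through Agilent Feature Extraction 10.5.1.1, per the file headers, and the deposited spot intensity had its background subtracted but was not scaled between arrays. The authors' value table is on a log2 scale as deposited. Its scaling and centring are not given in the sources used here. Its columns followed the scanner values with a slope of 0.996 to 0.997, with medians of -3.51 to -3.35. Its 75th percentile was 0.007 to 0.013 on each array. Its values lay above those used here, by a median of 0.59 to 0.67 (log2) on each array. The table served as an alternative, though one that followed the main values closely.

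Log2 processed signals were centred on the 75th percentile of each array, spots marked as outliers were left out, and spots of a probe were averaged. A probe was kept where, in at least 1 group, all 4 arrays had 50% or more of its spots well above background, and each group had 3 or more values. Each gene was represented by its brightest kept probe. Signals near background are surrogate values, which affects the dim genes. Groups were compared with lmFit and eBayes (limma 3.58.1, R 4.3.3), tested on simulated data; no spot was saturated. The number of arrays limits precision. All 36 members are accounted for, the 3 of each stage with the smallest p by animal; of other lists, at most 3 called genes are named. Marcksl1, Bhlhe22, Dcx and uncalled genes of other lists were singled out after their values were seen. Settings varied were scaling, background correction, filter, probe choice, variance model, array weights, a block for animal number and arrays left out. Members and lists were chosen with earlier results of these data known. Other lists served as cell type markers.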

Additional observations from a re-analysis of the deposited data

Results flagged for a closer look

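In 4 of 62 groups (31 genes, 2 groups each) a single animal stood apart from the other 3 by more than Dixon's 95% critical value of 0.829 for the gap over the range, where chance flags about 1 in 20 groups. Sox9 was at -1.92 in Y+I animal 4, against -2.54 to -2.47 in the other Y+I animals. Nr2e1 was at -5.61 in Y+I animal 2, against -5.29 to -5.24. Neurog2 was at -6.71 in vehicle animal 3, against -5.80 to -5.74 in the other vehicle animals. Cdk5r1 was at -2.83 in vehicle animal 3, against -3.12 to -3.09.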

How the results depend on the processing

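Over 20 alternatives, 0 of the 31 genes passed in 17, and 1 passed in each of 3: Neurod6 with no filter on background (1) and with the trended and robust variance model (1), and Gap43 when arrays were left out in turn (0 to 1, without Y+I animal 3). The count of all features was 439, and 713 with cyclic loess, 3887 with no filter, 144 with a replicate block for animal number, 164 without Y+I animals 2 and 3, and 121 to 355 with each array left out: 201, 189, 193 and 121 without vehicle animals 1 to 4, and 261, 285 and 278 without Y+I animals 1, 2 and 4. Of the 439 features 139 were higher and 300 lower, a split that turned to 400 higher and 202 lower with normexp and to 3361 higher and 526 lower with no filter. It stayed with more lower than higher in the other 18 alternatives. Normexp moved the median log2 fold change of all features to 0.09, against -0.02. The cause was not tested. Stage medians ranged from -0.14 to 0.16 for stem cell genes, which were above 0 in 4 alternatives (0.16 with normexp, 0.03 with the deposited value table, 0.01 with the filter on all 8 arrays and 0.04 without Y+I animal 1, against -0.03 as reported), 0.35 to 0.58 for progenitor genes and -0.20 to -0.07 for immature neuron genes. The log2 fold change of 18 of the 31 genes kept its sign in every alternative that gave a value. With normexp, Nr2e1, Neurog2, Sox11, Dpysl3, Tubb3, Igfbpl1 and Cdk5r1 changed sign. Same-numbered animals deviated from their group means with correlations of 0.05, -0.11, -0.04 and 0.04 for numbers 1 to 4. For animals of unlike numbers these were -0.22 to 0.18, and such values cannot decide whether the numbers pair the samples. With the block for animal number Neurod6 had an adjusted p of 0.145 in limma, and the calls of Elavl4, Slc17a6, Igfbp2 and Drd2 were lost. With 4 arrays a group and dim probes for Nr2e1, Msi1, Neurog2, Insm1 and Sox11, small changes could not be detected.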

Other observations

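None of the 5 measured ependymal and choroid plexus genes passed the threshold, and 3 were above 0 and 2 below. Foxj1, the master factor of motile cilia, had a log2 fold change of 0.65 ± 0.22 (SE, adjusted p = 0.185 in limma), Tmem212 1.35 ± 0.54 (SE, adjusted p = 0.264) and Folr1 0.88 ± 0.38 (SE, adjusted p = 0.308). Aqp1 had -0.24 ± 0.18 and Ttr -0.33 ± 1.16 (SE). The summed signal of the list ranged from 0.27 to 1.17 (log2) in Y+I and from -0.93 to 2.40 in vehicle, so the groups overlapped. Sema3c, a secreted guidance cue, had 0.74 ± 0.19 (SE, adjusted p = 0.100) and the Notch target Hes1 0.72 ± 0.24 (SE, adjusted p = 0.181), whereas Hes5 had -0.58.

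A probe whose description names eomesodermin, the progenitor factor Tbr2, carried no gene name equal to Eomes and was not a member. It was well above background on 0 of 4 Y+I arrays and 0 of 4 vehicle arrays, and no fold is given.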
